A study of Homo sapiens with 14 samples.

Results

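The Aurora kinases and the chromosomal passenger complex were followed here through the transcripts of 8 genes, chosen by name as the kinases themselves, the activators of Aurora A and the other subunits of the passenger complex. They are AURKA, AURKB, AURKC, TPX2, BORA, INCENP, BIRC5 and CDCA8, and all 8 were listed among the 26760 genes of the A549 count table and the 26732 genes of the H1792 table. The RNA-seq libraries were made from A549 and H1792, which are long-established lines of human lung adenocarcinoma, each a model of a single tumour in culture. Cells of each line were exposed for 48 h to 0.1 µM AMG900, an inhibitor of all 3 Aurora kinases, or to its solvent DMSO alone. There were 4 libraries per treatment for A549 and 3 per treatment for H1792, and no genetic alteration was introduced in any group. The lines were grown in different media, and the A549 libraries held 4254644 to 18962883 counts against 42810734 to 79984064 for H1792, so line, medium and depth cannot be told apart between lines. The description of the cultures speaks of 3 replicate dishes per treatment, and whether each of the 4 A549 libraries was a separate dish is not given in the sources used here, so p-values measure the spread between libraries, which may in part be technical.

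Aurora kinases are serine/threonine kinases that drive the mechanics of mitosis. Aurora A, the product of AURKA, works at centrosomes and on spindle microtubules, where TPX2 activates and localises it and BORA assists it in activating the kinase PLK1 before mitotic entry. Aurora B, from AURKB, is the enzymatic subunit of the chromosomal passenger complex, in which INCENP is the scaffold and kinase activator and survivin (BIRC5) and borealin (CDCA8) place the complex on inner centromeres. The complex corrects wrong attachments of chromosomes to the spindle and later moves to the midzone to steer cytokinesis, and AURKC is a paralog used mainly in germ cells. Transcripts of most of these genes rise in G2 and M phase and are low in cells that have left the cycle, and AMG900 acts on the kinase proteins, not on the transcripts measured here. In bulk RNA, fewer cells in a phase and less RNA per cell cannot be told apart.

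On the GRCh37 assembly with GENCODE annotation, the 8 genes lie at separate loci on 6 chromosomes. AURKA spans chr20:54944445-54967393 on the minus strand, AURKB chr17:8108051-8113918 on the minus strand and AURKC chr19:57742377-57746916 on the plus strand. TPX2 spans chr20:30327074-30389608 and BORA chr13:73301887-73330336, both on the plus strand. The remaining passenger genes are also on the plus strand, INCENP at chr11:61891470-61920641, BIRC5 at chr17:76210267-76221717 and CDCA8 at chr1:38158153-38175391. Of the 3189 exonic bases of BORA, 1180 (37.0%) lie opposite exons of DIS3, and since the strand setting of the counting is not given in the sources used here, reads of the pair may not be separable. The processed pseudogene AURKAPS1, which resembles AURKA, had 2 to 25 counts in A549 and 81 to 185 counts in H1792, where AURKA had 223 to 1872 and 3838 to 6974 counts.

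KRT8 and KRT18, keratins of simple epithelium, were at 3200 and 1626 CPM (counts scaled to a library total of 1000000) on average in A549 DMSO libraries and at 456 and 261 CPM in H1792. EPCAM, another epithelial marker, had 1 to 10 counts per library in A549 and averaged 3.40 CPM in H1792 DMSO libraries, and CDH1 averaged 22.9 and 0.681 CPM. Of the leukocyte markers, PTPRC and CD3E were at 0 to 4 counts in each of the 14 libraries. The collagen gene COL1A1, a fibroblast marker, averaged 97.3 CPM in A549 DMSO libraries and 2312 CPM in H1792, and with AMG900 43.6 and 1547 CPM. Its fibroblast partners COL1A2 and DCN were at 0 to 17 counts in A549 and at 1366 and 29.8 CPM in H1792 DMSO libraries. The part of these genes in the results was not tested.

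In A549 cells, AMG900 was accompanied by a fall of every member that had enough counts to be tested. AURKA, AURKB, TPX2, INCENP, BIRC5 and CDCA8 were all lower, to between 10.6% and 23.8% of their DMSO levels. By edgeR's quasi-likelihood test at a Benjamini-Hochberg adjusted p below 0.01, 6 of the 8 members were called lower and 0 higher, where 17.8% of the 13174 tested genes were called lower and 17.2% higher. AURKC and BORA were below the count filter in this line. In each of the 6 members, every AMG900 library lay below every DMSO library, as in 22.0% of all tested genes (21.9% lay above).

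AURKA stood at 111, 119.8, 102 and 111 CPM in A549 DMSO libraries 1 to 4 and at 21.1, 19.1, 20.1 and 18.7 CPM in AMG900 libraries 1 to 4. The groups were far apart and the treated libraries differed little among themselves, and the fit put AURKA at 17.8% of its DMSO level (95% interval 15.6% to 20.2%), a log2 fold change of -2.49 with a standard error of 0.0872 (edgeR adjusted p = 2.4e-11). AURKB, the kinase of the passenger complex, stood at 133, 108, 112 and 114 CPM with DMSO and at 14.6, 10.8, 11.8 and 13.3 CPM with AMG900. No treated library came near the DMSO range, and AURKB was left at 10.8% (9.15% to 12.7%), a log2 fold change of -3.21 with a standard error of 0.111 (edgeR adjusted p = 2.1e-11).

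TPX2, the microtubule-bound activator of Aurora A, drew the most counts of the 8 members in every A549 library. It stood at 268, 258, 239.9 and 254 CPM with DMSO and at 49.1, 42.7, 46.1 and 45.7 CPM with AMG900. The groups did not overlap, and TPX2 was left at 18.0% of its DMSO level (16.1% to 20.1%), with a log2 fold change of -2.47 and a standard error of 0.0741 (edgeR adjusted p = 6.4e-12). BORA, the cofactor in PLK1 activation, had 3, 8, 6 and 12 counts in the DMSO libraries and 3, 1, 3 and 8 in the AMG900 libraries. These counts overlapped and were mostly near the limit of detection, and the exact two-sided permutation test over libraries gave p = 0.0571, where 0.0286 is the smallest that 4 against 4 libraries allow. AURKC, the germ-cell paralog, had 0, 5, 2 and 9 counts with DMSO and 1, 4, 3 and 6 with AMG900, so no difference was detectable at this depth (exact permutation p = 0.714).

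The 3 non-kinase subunits of the passenger complex fell with their kinase. INCENP, the scaffold, stood at 77.3, 54.8, 64.3 and 57.5 CPM with DMSO and at 13.6, 12.1, 15.4 and 18.6 CPM with AMG900. Its fall was the smallest of the 6, to 23.8% (19.3% to 29.5%), with a log2 fold change of -2.07 and a standard error of 0.143 (edgeR adjusted p = 3.6e-08). BIRC5, which encodes survivin, stood at 175, 158, 163 and 164 CPM with DMSO and at 19.1, 18.6, 19.6 and 20.9 CPM with AMG900. It had the tightest treated group of the passenger subunits and was left at 11.9% (10.6% to 13.4%), with a log2 fold change of -3.07 and a standard error of 0.0798 (edgeR adjusted p = 3.5e-12).

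CDCA8, which encodes borealin, stood at 38.8, 55.0, 51.1 and 55.4 CPM with DMSO and at 3.50, 6.32, 6.47 and 4.65 CPM with AMG900. The first library of each treatment was the lowest of its group, and the groups did not overlap. CDCA8 was left at 10.6% (8.13% to 13.7%), with a log2 fold change of -3.24 and a standard error of 0.176 (edgeR adjusted p = 2.2e-09). The exact two-sided permutation test gave p = 0.0286 for each of the 6 members, the smallest value that 4 against 4 libraries allow. Genes of the cell cycle moved in the same direction in these libraries, with 46 of 48 tested G2/M genes and 41 of 41 tested S-phase genes called lower and none of either list called higher, at median log2 fold changes of -2.80 and -2.40 against -2.78 for the 6 members and -0.01 for all tested genes. Of all tested genes 17.8% were called lower and 17.2% higher. Where 10 counts were required in every library, 36 of 38 G2/M genes and 30 of 30 S-phase genes were called lower. The share of all tested genes under that filter was not counted. The members were left out of both lists, and the part of the cell cycle genes in the result was not tested.

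**Figure D1:**
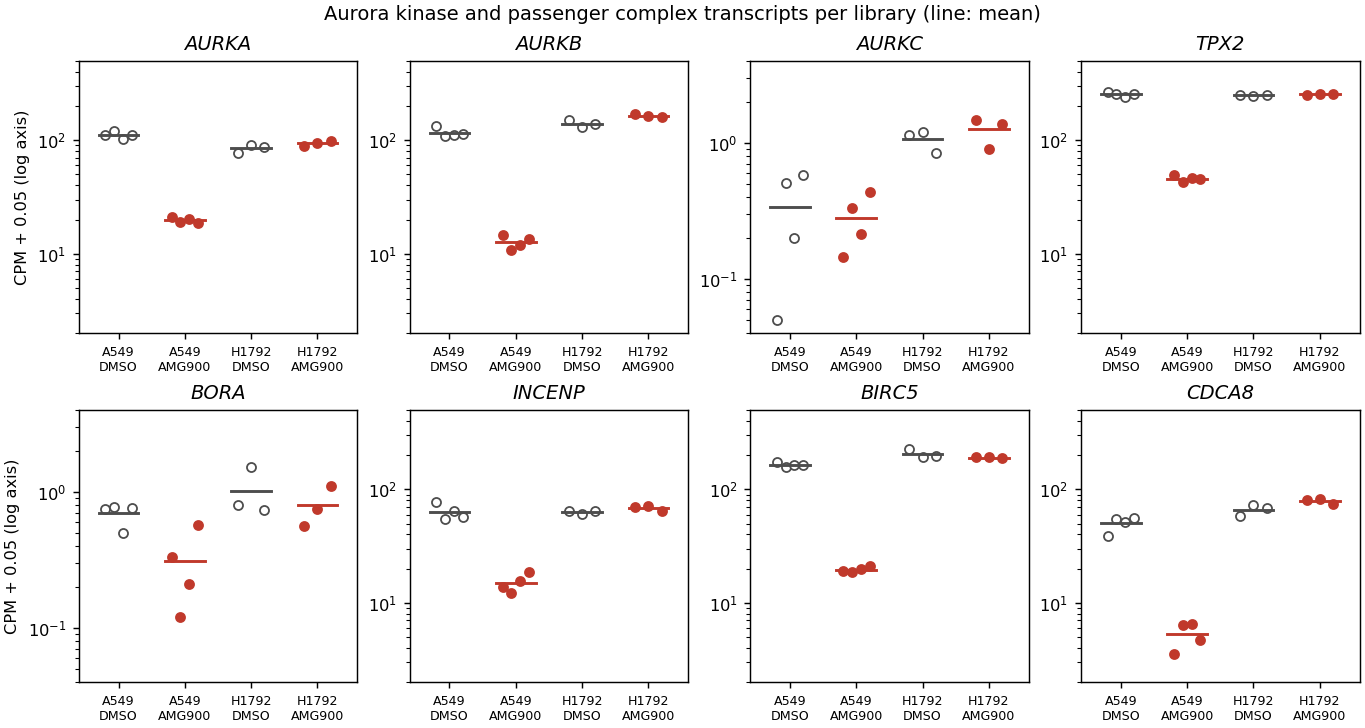
Expression of the 8 genes in each of the 14 libraries, in CPM plus 0.05 on a log axis, with open points for DMSO, filled points for AMG900 and a line at the mean of each group. In A549 the 6 abundant members lay between 3.50 and 49.1 CPM with AMG900 and between 38.8 and 268 CPM with DMSO, whereas in H1792 both treatments lay at similar heights. The panels of AURKC and BORA have a lower axis range.

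In H1792 cells all 8 genes passed the count filter, and the 6 abundant members stayed near their DMSO levels. For AURKC and BORA the counts were too low to tell. AURKB was called higher, by 1.18-fold, and no member was called lower, where 16.2% of 15017 tested genes were called higher and 18.8% lower. Every interval of the 6 abundant members lay between 84.2% and 136% of the DMSO level, so falls of the size measured in A549 lie outside these intervals. Every AMG900 library lay above every DMSO library in AURKB and CDCA8 and below in BIRC5, as did 30.1% and 29.6% of all tested genes in the respective direction, and 5 members overlapped.

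AURKA stood at 76.7, 91.5 and 87.5 CPM in H1792 DMSO libraries 1 to 3 and at 89.7, 93.8 and 97.7 CPM in AMG900 libraries 1 to 3. The groups overlapped, with the first DMSO library below the rest, and AURKA was at 110.1% of its DMSO level (98.6% to 123%), with a log2 fold change of 0.14 that did not pass the test (edgeR adjusted p = 0.131). AURKB stood at 149.9, 130.1 and 139.7 CPM with DMSO and at 169, 164 and 161 CPM with AMG900. All treated libraries were above the controls and AURKB was at 118% (107% to 129%), a log2 fold change of 0.24 with a standard error of 0.0609 (edgeR adjusted p = 0.00838). The call was not stable, since the adjusted p was 0.0126 to 0.0429 in 5 of the 6 fits without a single library (without DMSO library 2 or 3, or without AMG900 library 1, 2 or 3) and fell below 0.01 only without DMSO library 1. With a per-library correction for GC content the log2 fold change of AURKB was 0.08 (edgeR adjusted p = 0.140), and that of AURKA was 0.21 (adjusted p = 0.00823), so the called kinase changed with that setting. AURKB has 55.6% GC in its exons and AURKA 46.6%, and the median log2 fold change of all H1792 genes went from -0.44 in the lowest of 5 equal bins of GC content to 0.21 in the highest.

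TPX2 was the steadiest member in this line, at 253, 247 and 252 CPM with DMSO and 249, 256 and 256 CPM with AMG900. The ranges overlapped, and its level was 101% of that with DMSO (94.1% to 109%; edgeR adjusted p = 0.792). BORA had 49, 72 and 30 counts in the DMSO libraries and 40, 35 and 61 in the AMG900 libraries. With counts this low the interval ran from 43.8% to 138% of the DMSO level, and no change was detectable (edgeR adjusted p = 0.440). AURKC had 72, 56 and 35 counts with DMSO and 111, 43 and 77 with AMG900, an interval of 79.0% to 179% (edgeR adjusted p = 0.460).

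The passenger subunits did not move as a block in H1792. INCENP stood at 64.9, 60.3 and 64.7 CPM with DMSO and at 69.2, 70.7 and 64.0 CPM with AMG900, which overlapped and gave 107% of the DMSO level (97.7% to 118%; edgeR adjusted p = 0.189). BIRC5 stood at 226, 193 and 198 CPM with DMSO and at 191, 192 and 189.7 CPM with AMG900. All treated libraries were lower, but the first DMSO library carried most of the gap, and the level was 92.8% (84.2% to 102%; edgeR adjusted p = 0.183). CDCA8 stood at 58.2, 72.3 and 68.1 CPM with DMSO and at 81.0, 82.1 and 74.6 CPM with AMG900. Its level was 119.8% of that with DMSO (106% to 136%), which passed at an adjusted p below 0.05 and not below 0.01 (edgeR adjusted p = 0.0210), and without DMSO library 2 the adjusted p was 0.00487. The adjusted p of CDCA8 was above 0.05 without AMG900 library 1 (0.0782), without AMG900 library 2 (0.0881) and with total counts as library size (0.0988), and without DMSO library 1 its log2 fold change was 0.15 against 0.26 with all libraries. Exact permutation tests over 3 against 3 libraries cannot go below p = 0.1, the value reached by AURKB, BIRC5 and CDCA8.

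Over the 8 members in H1792 the median was 0.12 in log2 fold change, against 0.01 over all tested genes. Of 49 tested G2/M genes 6 were called higher and 11 lower, with a median of -0.07. These shares were near those of all tested genes, of which 16.2% were called higher and 18.8% lower. With GC correction 12 were higher and 8 lower, with a median of 0.09, beside 0.08 for the members. The share of all tested genes under that setting was not counted. Of 42 S-phase genes 26 were called lower and 0 higher, with a median of -0.56, and with GC correction 22 were lower and 1 higher, with a median of -0.40. No difference between these lists and the members was tested.

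**Figure D2:**
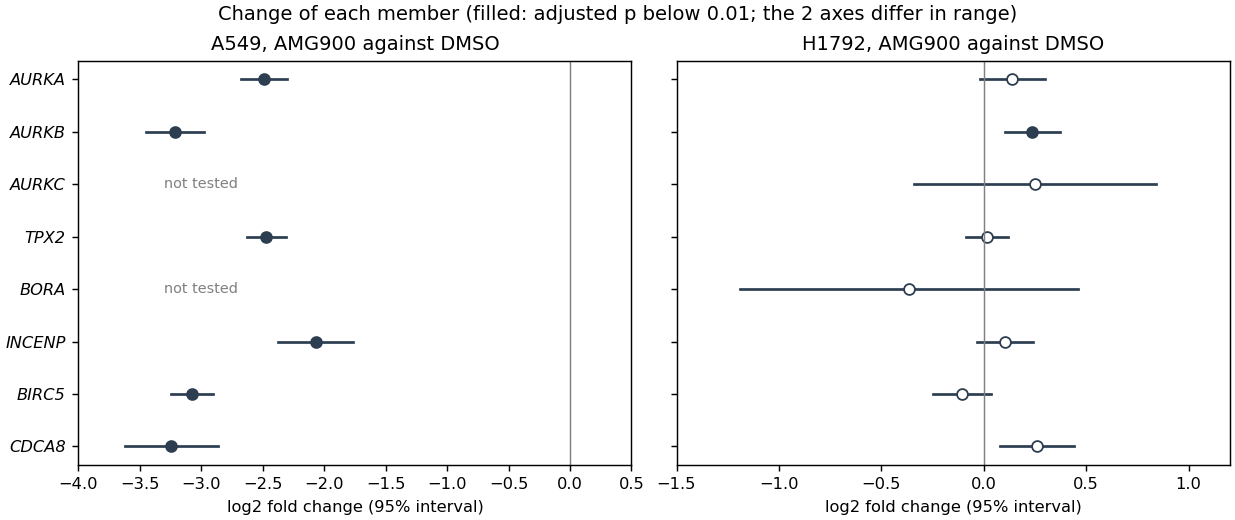
Log2 fold change of each member between AMG900 and DMSO in A549 (left) and H1792 (right), with 95% intervals from the edgeR fit, filled where the adjusted p was below 0.01. The A549 values lie between -3.24 and -2.07 and the H1792 values between -0.37 and 0.26. AURKC and BORA were not tested in A549, and the axes of the panels differ in range.

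**Figure D3:**
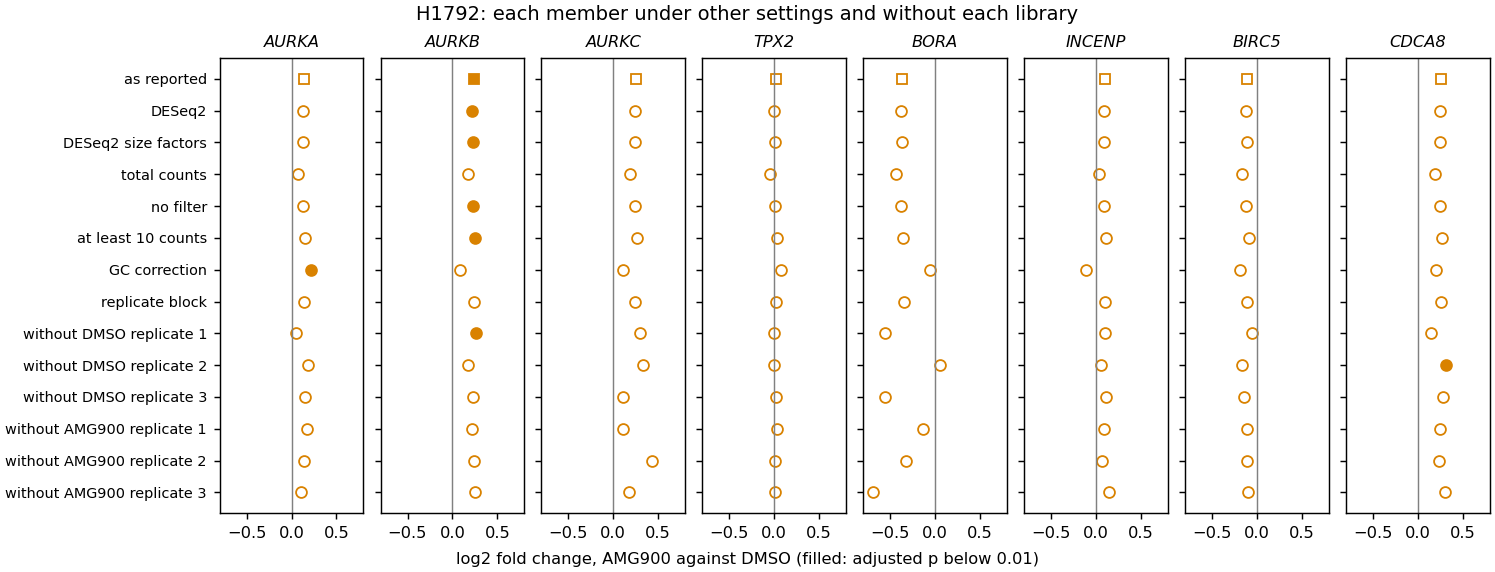
Log2 fold change of each member in H1792 as reported (squares) and under other settings or without each library (circles), filled where the adjusted p was below 0.01. AURKB lay between 0.08 and 0.27 and AURKA between 0.04 and 0.21, while BORA ranged from -0.69 to 0.05.

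The question of whether the lines responded differently was asked directly with an interaction term over all 14 libraries, as the H1792 change minus the A549 change. All 6 abundant members differed between lines, with interaction log2 values of 2.56 for AURKA, 3.37 for AURKB, 2.41 for TPX2, 2.09 for INCENP, 2.89 for BIRC5 and 3.43 for CDCA8. The standard error of the AURKA value was 0.110, and the largest adjusted p of the 6 was 2.4e-08, that of INCENP (edgeR). These 6 of 8 members compare with 5.37% of the 14769 genes tested in both lines that were called in that direction and 9.17% in the other. The ratio of the AMG900 level to the DMSO level of AURKB was 10.4 times as high in H1792 as in A549 (95% interval 8.59 to 12.5). For INCENP it was 4.25 times as high (3.32 to 5.45). AURKC and BORA gave interaction values of 0.70 and 0.87 that did not pass (edgeR adjusted p = 0.516 and 0.399), with 0 to 12 counts behind each of their A549 libraries.

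Under DMSO alone, on a joint scale of CPM, 5 of the 8 members were called different between the lines. H1792 was higher than A549 by a log2 difference of 0.36 in AURKB (edgeR adjusted p = 7.0e-04), 0.42 in BIRC5 (1.7e-05), 0.48 in CDCA8 (0.00241) and 1.66 in AURKC (0.00401), and lower by a log2 difference of -0.28 in AURKA (0.00229). These 4 members higher and 1 lower stand against 34.2% and 31.9% of the 14769 tested genes. TPX2 (0.08), INCENP (0.11) and BORA (0.69) did not pass. With GC correction the split was 5 higher and 0 lower, since TPX2 was called at 0.21 (edgeR adjusted p = 0.00566) and AURKA was not (adjusted p = 0.0448). The share of all tested genes under that setting was not counted. The call of AURKA was lost without H1792 DMSO library 1 (adjusted p = 0.0897), those of AURKC without A549 DMSO library 3 or H1792 DMSO library 1 or 2 (adjusted p from 0.0103 to 0.0210), and those of CDCA8 without H1792 DMSO library 2 or 3 (0.0138 and 0.0103). The A549 counts of AURKC were 0 to 9, so its value rests on few reads.

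Across the 4 groups on the joint scale, A549 cells with AMG900 were lowest in each of the 6 abundant members. AURKB lay in ranges that did not overlap, at 102 to 126 CPM in A549 DMSO libraries, 133 to 154 CPM in H1792 DMSO libraries and 166 to 173 CPM in H1792 AMG900 libraries. CDCA8 had the same order, with 36.6 to 53.8, 59.7 to 74.0 and 76.7 to 84.3 CPM. The share of all genes with ranges apart in this way was not counted. In H1792 alone, 30.1% of all tested genes had every AMG900 library above every DMSO library. With GC correction the H1792 log2 fold change of AURKB was 0.08 (edgeR adjusted p = 0.140). BIRC5 was at 149 to 165 CPM in A549 DMSO libraries, 195 to 197 CPM in H1792 AMG900 libraries and 198 to 232 CPM in H1792 DMSO libraries. The neighbouring ranges of H1792 almost touched. AURKA was highest in A549 DMSO libraries (98.5 to 113 CPM), which overlapped with H1792 AMG900 libraries (91.9 to 100.4 CPM), and these in turn with H1792 DMSO libraries (78.6 to 93.5 CPM). For TPX2 the H1792 treatments overlapped with each other just above the A549 DMSO range, and for INCENP these 3 groups all overlapped. AURKC was at 0 to 0.518 CPM in A549 and 0.817 to 1.46 CPM in H1792 over both treatments, and BORA at 0.0710 to 0.691 and 0.527 to 1.51 CPM.

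Levels can be compared between genes only per length of transcript. Per kilobase of the longest annotated transcript, the order of mean levels in A549 DMSO libraries was AURKB at 89.2 CPM per kilobase, TPX2 at 67.5, BIRC5 at 58.2, AURKA at 47.2, CDCA8 at 20.2, INCENP at 14.7, BORA at 0.204 and AURKC at 0.170. CDCA8 and INCENP, and BORA and AURKC, were neighbours whose libraries overlapped. In H1792 DMSO libraries the order was AURKB at 114, BIRC5 at 77.8, TPX2 at 71.2, AURKA at 38.8, CDCA8 at 28.6, INCENP at 15.8, AURKC at 0.646 and BORA at 0.327, with no overlap between neighbours. With AMG900, A549 cells had TPX2 first at 12.9 CPM per kilobase, then AURKB at 10.2, AURKA at 8.86, BIRC5 at 7.28, INCENP at 3.67 and CDCA8 at 2.23, where AURKB and AURKA overlapped. With the median transcript length in place of the longest, BIRC5 came first in A549 DMSO libraries at 243 CPM per kilobase, AURKB followed at 147 and INCENP was at 55.6, so the order depends on the transcript assumed. BORA, at 41.1% GC, was at 0.204 and 0.327 CPM per kilobase where the median genes of its GC bin were at 3.63 in A549 and 2.84 in H1792.

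Within a library, the ratio of counts between subunits asks whether the members changed in step. In A549 the log2 ratio of AURKB to INCENP was 0.79, 0.98, 0.81 and 0.99 in the DMSO libraries and 0.11, -0.16, -0.39 and -0.48 in the AMG900 libraries, a mean shift of -1.12. The groups were separate, and the kinase lost more transcript than its scaffold, but after adjustment over the 5 ratios examined the exact permutation test did not pass (p = 0.0286, the smallest possible, adjusted p = 0.143). The ratios of AURKB to BIRC5 (-0.14), AURKB to CDCA8 (0.06) and AURKA to TPX2 (-0.02) shifted little, and their groups overlapped. AURKA to BORA shifted by -0.99, with overlapping groups and few BORA counts (exact permutation p = 0.114, adjusted p = 0.286). The sign of the AURKB to CDCA8 and AURKA to TPX2 shifts turned when single libraries were left out.

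In H1792 the ratio of AURKB to BIRC5 ran from -0.59 to -0.50 with DMSO and from -0.24 to -0.18 with AMG900, a mean log2 shift of 0.34 with separate groups. The ratio of AURKB to INCENP shifted by 0.14, from 1.11 to 1.21 with DMSO and 1.22 to 1.33 with AMG900. Both had an exact permutation p of 0.1, the smallest possible for 3 against 3 libraries, and 0.25 after adjustment. AURKA to TPX2 (0.12), AURKB to CDCA8 (-0.03) and AURKA to BORA (0.47) had overlapping groups.

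**Figure D4:**
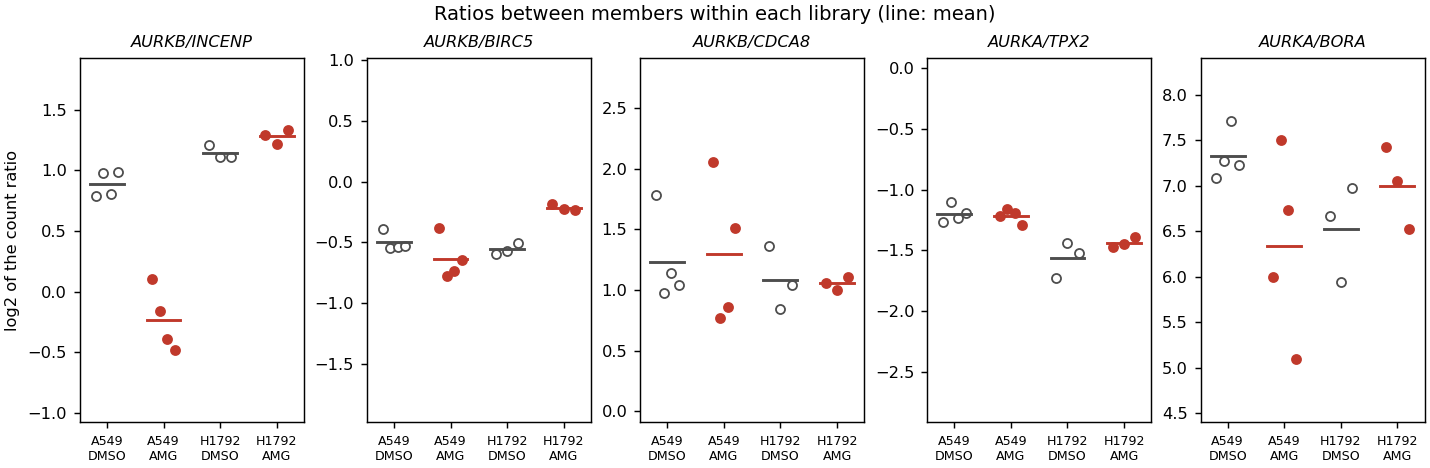
Log2 ratio of counts between pairs of members in each library (0.5 added to each count), with open points for DMSO, filled points for AMG900 and a line at the group mean. AURKB to INCENP drops by 1.12 with AMG900 in A549, and AURKB to BIRC5 rises by 0.34 in H1792. The last panel has a wider axis, since BORA has few counts.

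Genes that act beside the Aurora kinases were described through 5 lists with 50 genes. In A549, 34 of 48 tested list genes were called lower and 2 higher, with a median log2 fold change of -2.03, where 17.8% of all tested genes were lower and 17.2% higher. Where 10 counts were required in every library, 27 of 40 were lower and 2 higher, and the share of all tested genes was not counted. In H1792 20 of 50 were called lower and 5 higher, with a median of -0.21, where 18.8% of all tested genes were lower and 16.2% higher. With GC correction 13 were lower and 9 higher, with a median of -0.07. The share of all tested genes called with GC correction was not counted in either line, here or for the single lists. Directly around Aurora A, 7 of 10 partners were lower and 1 was higher in A549, and 6 were lower and 0 higher with GC correction. CDK1, the mitotic kinase, had the largest fall of this list, -3.61 in A549 and -0.57 in H1792 (edgeR adjusted p = 2.7e-07 and 7.1e-04), where it was at -0.04 with GC correction (adjusted p = 0.683). NUMA1, which anchors spindle poles, was called at 0.26 in A549 (edgeR adjusted p = 0.00829), a call that was lost in 9 of 16 alternatives, among them the fits without DMSO library 2, 3 or 4 or AMG900 library 2, 3 or 4 (adjusted p from 0.0190 to 0.0367), and with GC correction the value was -0.08. Of the same 10 partners in H1792, 2 were lower and 2 higher, shares near those of all tested genes, and NDEL1, a dynein cofactor, had the largest rise at 0.49 (edgeR adjusted p = 6.3e-04).

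A further list held kinases, adaptors and checkpoint proteins around the recruitment of the passenger complex to centromeres. In A549 5 of its 5 tested genes were lower, with a median log2 fold change of -3.60, where 17.8% of all tested genes were lower. Some genes passed the filter through their DMSO counts, as SGO2 did with 12 to 31 counts, against 1 to 6 with AMG900. Where 10 counts were required in every library, 3 of 3 tested genes were lower. The share of all tested genes under that filter was not counted. BUB1B, a checkpoint protein, fell by 3.71 on the log2 scale (edgeR adjusted p = 1.1e-08), from 26.5 ± 8.66 CPM (SD, n = 4) to 1.98 ± 0.216. TTK was not tested in A549, and in H1792, where 3 of 6 genes of the list were lower and 0 higher, TTK had the largest fall at -1.52 (edgeR adjusted p = 4.7e-04). Among substrates and partners of Aurora B, which build kinetochores and the midzone, 11 of 11 tested genes were lower in A549, at a median of -2.79. With 10 counts required in every library, 8 of 8 were lower. ECT2, which activates RhoA at the cleavage site, fell by 3.80 in A549 and by 1.74 in H1792 (edgeR adjusted p = 2.5e-05 and 8.0e-05). In H1792 4 of 12 genes of this list were lower and 1 higher, where 18.8% of all tested genes were lower and 16.2% higher. With GC correction 2 were lower and 4 higher, and the median went from -0.01 to 0.10. The share of all tested genes under that setting was not counted. The gene called higher without GC correction was KIF20A, the kinesin that carries the complex to the midzone, at 0.51 (edgeR adjusted p = 0.00147, and 0.0105 without AMG900 library 1).

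The next list held genes for ubiquitin-dependent turnover of the kinases and for the phosphatases that oppose them. In A549 4 of 12 were called lower and 0 higher, where 17.8% of all tested genes were called lower and 17.2% higher. The median log2 fold change of the list was -0.37, and with GC correction 2 genes were lower and 1 higher, at a median of -0.05. CDC20, a co-activator of the anaphase-promoting complex, had the largest fall at -3.11 (edgeR adjusted p = 6.4e-12). In H1792 6 of these 12 genes were lower and 1 higher, where 18.8% of all tested genes were lower and 16.2% higher. With GC correction 3 were lower and 2 higher, and the share of all tested genes under that setting was not counted. PPP6C, the catalytic subunit of the phosphatase that acts on Aurora A, fell by 1.15 on the log2 scale (edgeR adjusted p = 4.2e-05), a call that held in all 14 alternatives. FZR1, the other co-activator of the anaphase-promoting complex, was called at 0.24 (edgeR adjusted p = 0.00459), which was lost in 7 of 14 alternatives, among them the fits without DMSO library 3 or AMG900 library 1, 2 or 3 (adjusted p from 0.0185 to 0.0326), and with GC correction its value was -0.0094.

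Factors that act on the promoters of mitotic genes, with the cell cycle inhibitor CDKN1A, made up the last list. In A549 7 of 10 were lower and 1 higher, where 17.8% of all tested genes were lower and 17.2% higher. FOXM1 was at a log2 fold change of -3.01, MYBL2 at -3.46 and E2F1 at -2.76, and all of these transcription factors had edgeR adjusted p-values of at most 4.1e-11. CDKN1A, which encodes p21, rose by 1.73 (edgeR adjusted p = 6.5e-11), from 504 ± 41.8 CPM (SD, n = 4) to 1679 ± 31.5. In H1792 the same 4 genes were also called, in the same directions, with log2 fold changes of -0.22 for FOXM1, -0.33 for MYBL2, -0.38 for E2F1 and 0.60 for CDKN1A (the largest edgeR adjusted p was 0.00387). The H1792 calls of FOXM1 and E2F1 were lost without DMSO library 3 or AMG900 library 2 or 3. That of FOXM1 was also lost without AMG900 library 1 and with the replicate block (edgeR adjusted p from 0.0115 to 0.0259 over these losses). The calls of MYBL2 and CDKN1A held in all 14 alternatives. CDKN1A stood at 45.2 ± 0.983 CPM (SD, n = 3) with DMSO and 68.2 ± 1.40 with AMG900 in that line. LIN9, a subunit of the DREAM and MuvB complexes, had the largest fall in H1792 at -0.72 (edgeR adjusted p = 0.00182), which was lost with GC correction (0.0339) and without AMG900 library 3 (0.0106).

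**Figure D5:**
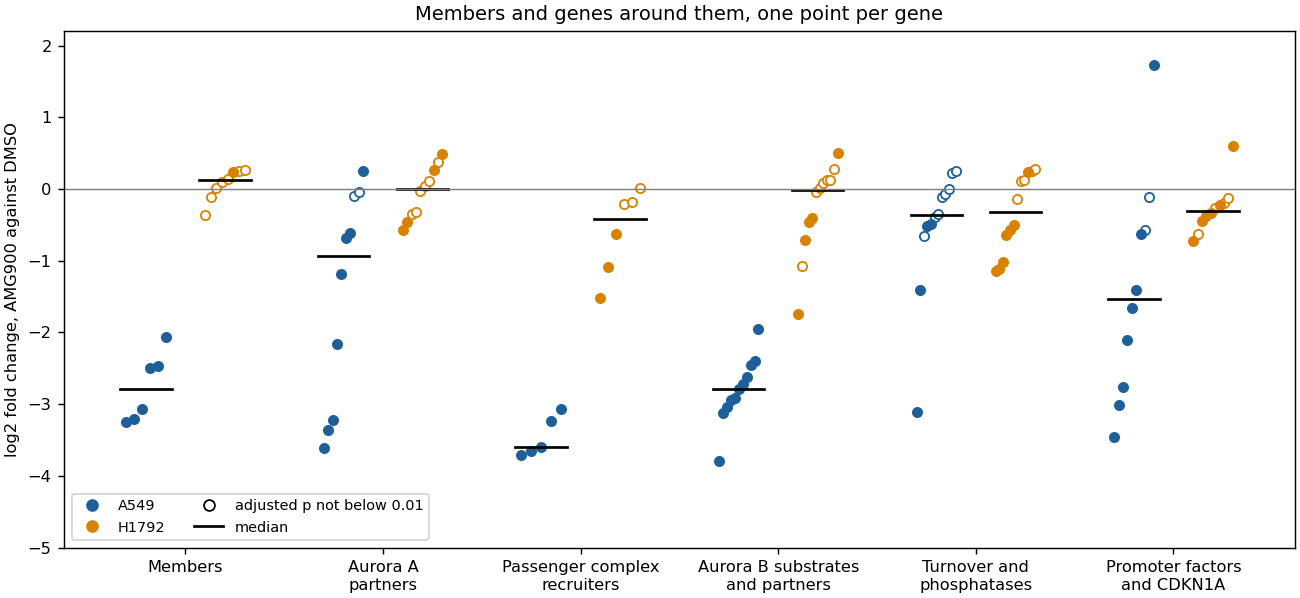
Log2 fold change between AMG900 and DMSO of the members and of each gene in the 5 lists, blue for A549 and orange for H1792, filled where the edgeR adjusted p was below 0.01, with a bar at the median. The A549 medians run from -3.60 (recruiters) to -0.37 (turnover and phosphatases), and the H1792 medians from -0.42 to 0.12.

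Many mitotic genes carry a cell cycle homology region (CHR, letters TTTGAA) and CCAAT boxes upstream of their start, which are bound by the DREAM and MuvB complexes and by NF-Y. Since the members fell together in A549, the 250 bases before the start were searched on both strands (TTTGAA or TTCAAA, and CCAAT or ATTGG) in RefSeq promoter sequences of GRCh38.p14, which matched 5 of the 8 members. AURKA, TPX2 and BIRC5 had no entry. A single start per gene was searched, and it was not compared with the starts of the GRCh37 loci given above. CHR letters were present in BORA at -177 to -172, in CDCA8 at -23 to -18 and in INCENP at -10 to -5 from the start, and not in these windows of AURKB and AURKC, against 13.6% of 27305 promoters and 13 of 43 promoters of the pathway lists. CCAAT letters were present in 5 of 5 members, 20 of 43 list promoters and 33.0% of all promoters. The windows of CDCA8, INCENP, BORA and AURKB are shown, 5′ to 3′ on the strand of the gene, with matches in capitals. They lie at chr1:37692266-37692515 (plus), chr11:62123761-62124010 (plus), chr13:72727673-72727922 (plus) and chr17:8210226-8210475 (minus). In CDCA8 the CHR letters and a CCAAT box on the opposite strand share a base and appear as a single run of capitals.
CDCA8: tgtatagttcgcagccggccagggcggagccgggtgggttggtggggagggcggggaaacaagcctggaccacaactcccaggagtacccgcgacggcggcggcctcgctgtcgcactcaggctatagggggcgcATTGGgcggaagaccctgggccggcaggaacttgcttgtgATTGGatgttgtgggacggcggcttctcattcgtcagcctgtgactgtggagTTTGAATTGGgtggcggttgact
INCENP: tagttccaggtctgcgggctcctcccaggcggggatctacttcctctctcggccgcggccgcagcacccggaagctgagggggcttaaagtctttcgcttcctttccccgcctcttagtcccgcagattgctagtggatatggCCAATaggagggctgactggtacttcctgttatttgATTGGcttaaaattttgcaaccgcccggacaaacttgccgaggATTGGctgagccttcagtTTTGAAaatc
BORA: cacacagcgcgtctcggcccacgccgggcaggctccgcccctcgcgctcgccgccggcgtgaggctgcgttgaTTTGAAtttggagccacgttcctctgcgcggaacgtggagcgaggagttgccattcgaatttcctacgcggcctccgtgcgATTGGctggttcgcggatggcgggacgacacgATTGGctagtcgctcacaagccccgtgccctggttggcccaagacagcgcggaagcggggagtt
AURKB: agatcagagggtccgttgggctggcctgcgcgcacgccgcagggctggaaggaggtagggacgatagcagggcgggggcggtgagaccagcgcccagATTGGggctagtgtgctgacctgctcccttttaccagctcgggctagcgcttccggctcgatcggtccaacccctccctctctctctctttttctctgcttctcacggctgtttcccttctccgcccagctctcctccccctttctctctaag

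Set beside these letters, CDCA8 and INCENP, which hold CHR letters, and AURKB, which does not in this window, had log2 fold changes of -3.24, -2.07 and -3.21 in A549 and of 0.26, 0.10 and 0.24 in H1792. A match of letters is a description of the sequence and not of binding. The AURKB window may not lie before the start of the GRCh37 locus, so it does not show that the AURKB promoter lacks CHR letters.

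Likeness to the kinases over the 14 libraries was measured as the root mean square difference of log2 CPM after each gene's mean was subtracted, among 14761 other genes. Closest to AURKA were CKS1B, a CDK-binding protein (0.156), KIF23, a midzone kinesin (0.162), and HMGB2, a chromatin protein (0.163), against a median of 1.21 over all genes. In A549 CKS1B changed by -2.41, KIF23 by -2.72 and HMGB2 by -2.75 in log2 fold change, and in H1792 by -0.05, 0.02 and -0.04. Nearest to AURKB were GTSE1, a microtubule-binding protein (0.114), PLK1, a mitotic kinase (0.181), and ASF1B, a histone chaperone (0.234), against a median of 1.67. GTSE1 changed by -3.23 in A549 and 0.17 in H1792, and PLK1 by -3.22 and -0.03. The libraries share line and treatment, so this likeness is a description only.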

How the data were processed

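RNA was measured by sequencing in 14 libraries of A549 and H1792 cells, grouped by the labels' line and treatment. The deposited values are raw counts per gene. The authors aligned reads with STAR to hg19 (GRCh37) and counted them with HTSeq, per the labels, and versions, annotation and strand setting are not given in the sources used here. The H1792 table held 28 calendar dates in place of symbols, which were left out. Replicates of a group differed by more than sampling noise (chi-square of 3.32 to 48.3 per gene). Counts were filtered with filterByExpr (minimum count 10), scaled with TMM and fitted per line, and over all 14 libraries for comparisons between lines, with edgeR 4.0.16 (quasi-likelihood, Benjamini-Hochberg, threshold 0.01) in R 4.3.3. The biological coefficient of variation was 12.8% in A549 and 9.6% in H1792. CPM are counts per 1000000 of the TMM-scaled total, and intervals are at the 95% level. Single values and ratios (0.5 added to each count) were tested with exact two-sided permutation tests. Intervals are those of the edgeR fit and include the spread between libraries, and limits of detection (3 counts per library) cover counting error only. Alternatives were DESeq2 1.42.0, its size factors, total counts, filters, a GC spline with 5 degrees of freedom (GC known for 95.7% to 97.1% of tested genes), a replicate block, each library left out, and a threshold of 0.05. The procedure was tested on simulated data. The members and lists were chosen with earlier results of these data known. Named list genes were those with the largest called rise and fall per list and line, with FOXM1, MYBL2, E2F1 and CDKN1A always named, and the cell cycle lists were those of Seurat 5.3.0. Loci, lengths and GC came from GENCODE v44lift37.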

Additional observations from a re-analysis of the deposited data

Results flagged for a closer look

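The response to AMG900 differed between the lines in 6 members by the interaction term of the edgeR fit, with H1792 minus A549 log2 values of 2.56 for AURKA, 3.37 for AURKB, 2.41 for TPX2, 2.09 for INCENP, 2.89 for BIRC5 and 3.43 for CDCA8. Line, culture medium and depth cannot be told apart in this comparison.

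BORA in the A549 DMSO libraries had a single low library, the third, at 0.448 CPM (6 counts), while the other 3 lay between 0.705 and 0.728 CPM. Chance sets apart about 1 in 20 groups this way, and these values rest on 3 to 12 counts.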

How the results depend on the processing

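All 6 member calls in A549 and all 6 in the difference between lines were kept in direction and significance under every alternative run. In H1792 the number of members called was 1 as reported, 0 with total counts as the library size, 0 with the replicate block, 2 at a threshold of 0.05, and 0 to 1 without single libraries. With GC correction it was 1, but the member was AURKA and not AURKB. AURKB passed in 6 of 14 alternatives (adjusted p from 2.0e-04 to 0.140). Between DMSO groups 5 members were called, and 3 where at least 10 counts were required in every library, a filter that AURKC and BORA did not pass. Without single libraries 3 to 5 were called, and AURKA lost its call in 5 of 22 alternatives. Total counts moved the median log2 difference of all genes between DMSO groups from 0.04 to -0.07.

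Signs turned for members near 0. In H1792, TPX2 was at -0.048 with total counts and at -0.0026 to 0.030 without single libraries, BORA ran from -0.685 to 0.054 without single libraries, and INCENP was at -0.11 with GC correction. In the lists, NUMA1 in A549 was at -0.081 and FZR1 in H1792 at -0.0094 with GC correction. Between DMSO groups TPX2 was at -0.028 with total counts and INCENP at -0.075 with GC correction. Without single libraries the A549 ratio of AURKB to CDCA8 ran from -0.19 to 0.25 and that of AURKA to TPX2 from -0.039 to 0.015, and the H1792 ratio of AURKB to CDCA8 from -0.14 to 0.12. The cause was not tested.

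Among the lists, 3 of 3 tested recruiters were called in A549 instead of 5 of 5 where 10 counts were required in every library. The remaining recruiters were below that filter. At a threshold of 0.05, 7 turnover genes were called in A549 instead of 4, and 26 G2/M genes in H1792 instead of 17. For the difference between lines, 1 turnover gene was called instead of 2 with DESeq2 size factors and with the replicate block.

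Replicate numbers are shared between treatments, and whether they pair cultures is not stated. Deviations of same-numbered libraries correlated at -0.0391 to 0.0126 in A549 and -0.0604 to 0.0425 in H1792. Differently numbered libraries correlated at -0.199 to 0.163 in A549 and -0.0540 to 0.106 in H1792. With so few libraries these values cannot exclude pairing. With the replicate block AURKB in H1792 had an adjusted p of 0.0117 (edgeR). AURKC and BORA in A549 rest on 0 to 12 counts, where only a large change could be detected. TTK, also below the count filter in A549, had 4 to 13 counts with DMSO and 0 to 1 with AMG900. Its groups did not overlap (exact permutation p = 0.0286), as in 22.0% of all tested genes in that direction. With DESeq2 and with no filter, 6 of 6 recruiters were called lower in A549, TTK among them.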
